A study of Mus musculus with 6 samples.

Results

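The TGF-β ligands, their receptors and the latent TGF-β binding proteins were followed in quiescent muscle stem cells (qMuSCs) with and without type 2 deiodinase (D2, encoded by Dio2), the enzyme that makes active thyroid hormone inside cells. The set comprised 9 genes of the 31053 in the count table, listed by name: the ligand genes Tgfb1, Tgfb2 and Tgfb3, the receptor genes Tgfbr1, Tgfbr2 and Tgfbr3, the latent TGF-β binding protein genes Ltbp1 and Ltbp4, and Acvr2b, a receptor for myostatin. All 9 were among the 11633 genes that passed the expression minimum, a mean of normalized counts above 10, so none was lost to the filter. The 6 libraries, each from 1 mouse, came from stem cells sorted from resting muscle. WT denotes the 3 mice c124, c129 and c130, of genotype Pax7nGFP/+;Pax7+/+;Dio2Fl/Fl, and cD2KO the 3 mice fl125, fl126 and fl128, of genotype Pax7nGFP/+;Pax7-CreERT2/+;Dio2Fl/Fl. Mice of both genotypes received tamoxifen, and both carried the nuclear GFP reporter and the floxed Dio2 alleles. The inducible recombinase, driven from the Pax7 locus and so active in Pax7-expressing cells, was carried by the cD2KO mice alone, and no group with the recombinase and without floxed Dio2 was included. The labels gave no age, and the sorting protocol of the study named adult mice of 3 to 4 months.

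TGF-β ligands are secreted in a latent form, held by their own propeptide and tied to the matrix by latent TGF-β binding proteins or to cell surfaces by anchor proteins. Once released, a ligand binds the type II receptor, which recruits and phosphorylates the type I receptor, and Smad proteins then carry the signal to the nucleus. In muscle, TGF-β and myostatin are known to restrain myogenic differentiation and growth, and TGF-β drives fibrosis.

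Total counts per library ran from 2184073 to 3897787, and 3 counts, the floor used here, corresponded to 0.768 to 1.36 CPM. Totals did not separate the genotypes (exact permutation test, two-sided, p = 0.7; with 3 mice a side this test cannot go below 0.1). Dio2 itself had 21, 5 and 10 counts in c124, c129 and c130 and 15, 5 and 1 counts in fl125, fl126 and fl128. It lay below the expression minimum and the genotypes overlapped, with fl125 the highest of the 6 mice in CPM, so Dio2 gave no check of the labels. All 10 muscle stem cell markers examined were measured in every mouse, with Pax7 between 212 and 687 CPM. Markers of other cell types were present as well. Summed over 13 immune markers, the level was 4372 to 8025 CPM in WT mice and 219.6 to 2856 CPM in cD2KO mice, with fl125 the lowest by far and no marker at 0 in any mouse. Over 10 mural cell markers the sum was 5456 to 9364 CPM in WT mice and 11049.5 to 16269.6 CPM in cD2KO mice, also with none at 0. Over 11 endothelial markers it was 266 to 375 CPM and 212 to 260.3 CPM, and Tie1 and Cldn5 were at 0 in at least 1 mouse.

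The question put to these genes was whether their RNA differed between D2-depleted and WT stem cells. Throughout, a gene is said to have risen or fallen where the unadjusted p of edgeR's quasi-likelihood test was under 0.05, and adjusted p-values are Benjamini-Hochberg values over all genes tested. By that line 1391 genes, or 12.0% of those tested, were called, with 5.34% of tested genes higher and 6.62% lower in cD2KO mice. The balance between directions depended on the scaling: 621 genes were higher and 770 lower with TMM factors, 445 and 945 with scaling to total counts, and 698 and 704 with DESeq2 size factors. Of the 9 genes, Tgfb2 and Tgfb3 rose, Tgfbr2 fell and 6 were not called. No gene of the 9 had an adjusted p under 0.05 in edgeR, against 2 with the Wald test of DESeq2 (Tgfb3, adjusted p = 0.000419, and Tgfb2, adjusted p = 0.0274) and 0 with limma voom. Tgfb3 was the only one under 0.1 in edgeR, a line that 0.774% of all tested genes passed. The median log2 fold change was -0.16 over the 9 genes and -0.02 over all tested genes, with 4 of the 9 above 0 and 5 below. In 5 of the 9 the mice of the genotypes did not overlap (Tgfb2, Tgfb3 and Ltbp1 higher, Tgfb1 and Tgfbr2 lower in every cD2KO mouse), as in 18.1% of tested genes. In this bulk RNA, fewer cells of a type and less RNA per cell cannot be told apart.

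**Figure D1:**
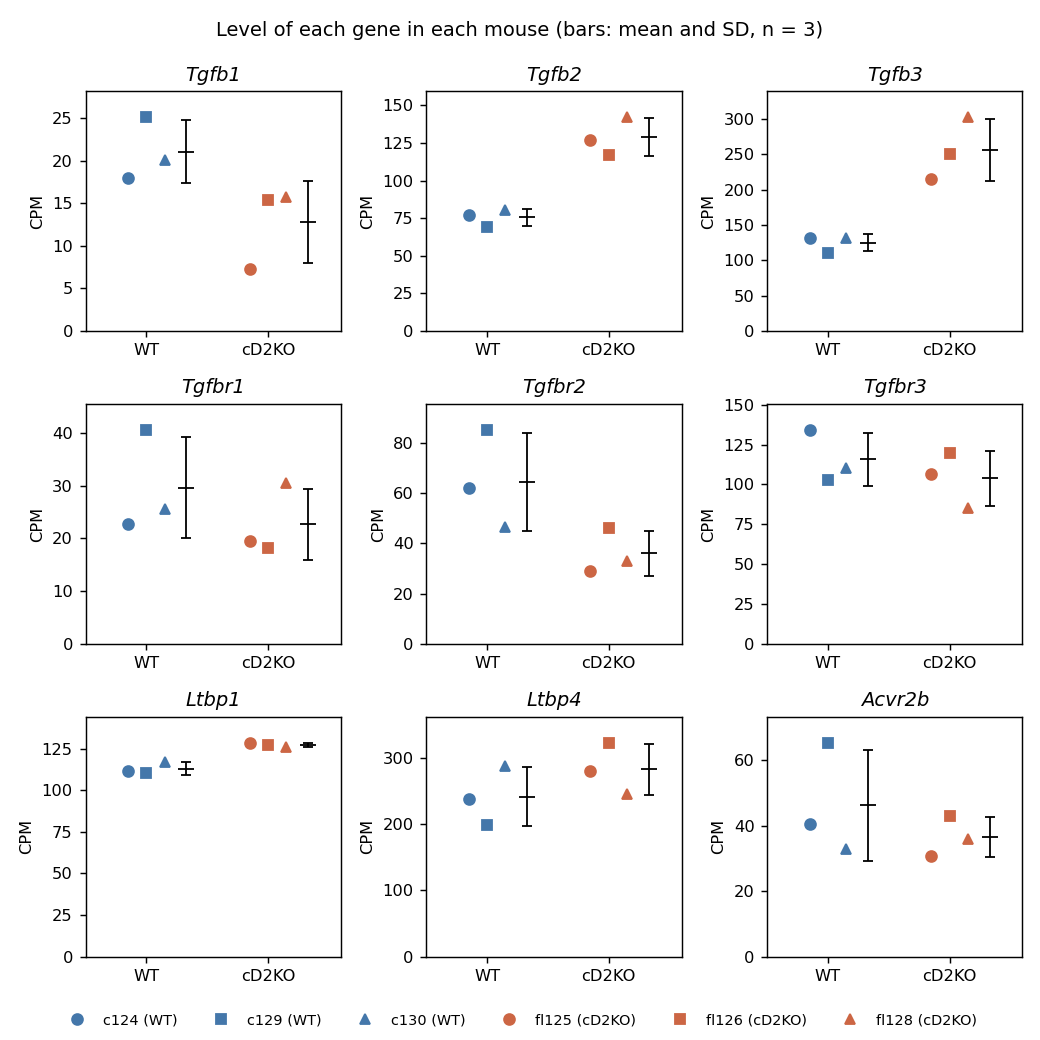
Level of each of the 9 genes in CPM (y axes, from 0) in each mouse, WT in blue and cD2KO in orange, with the mean and SD of the 3 mice of a genotype beside the points. Tgfb2 and Tgfb3 were higher in all cD2KO mice than in any WT mouse, and Tgfb1 and Tgfbr2 were lower.

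**Figure D2:**
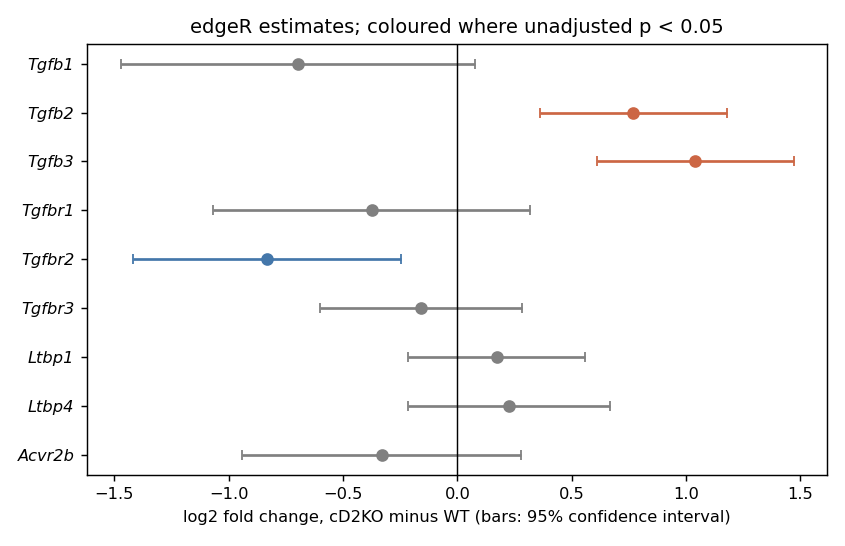
Log2 fold change of the 9 genes, cD2KO minus WT, from edgeR (x axis), with 95% confidence intervals; orange and blue mark genes with an unadjusted p under 0.05. The intervals of Tgfb2 and Tgfb3 lay above 0 and that of Tgfbr2 below 0, and the other 6 intervals included 0.

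Among the ligands, Tgfb3 (ENSMUSG00000021253, chr12:86056745-86079041, minus strand, mm10) showed the smallest p of the 9 genes. Its product is a TGF-β isoform with roles in palate fusion and scarring. Its level was 131, 111 and 132 CPM in c124, c129 and c130, and 216, 251 and 303 CPM in fl125, fl126 and fl128. The genotypes were separate, and the lowest cD2KO mouse lay well above the highest WT mouse. The mean rose from 125 ± 12.2 to 257 ± 44.0 CPM (SD, n = 3 mice per genotype), a log2 fold change of 1.04 ± 0.20 (SE; edgeR, unadjusted p = 0.000139, adjusted p = 0.0885), and Tgfb3 ranked 15 by p among the genes tested. On the opposite strand Tgfb3 overlaps Ttll5, with no exon bases shared, and Ttll5 had 13 to 52 counts per mouse against 300.0 to 965 for Tgfb3. Gm37804 and Gm48008, annotated on the opposite strand, share 163 and 257 exon bases with Tgfb3. Neither was in the count table, so reads from them could not be examined.

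Tgfb2 (ENSMUSG00000039239, chr1:186622792-186705989, minus strand), the isoform known for roles in heart and skeletal development, moved the same way. Its level was 77.1, 69.4 and 80.3 CPM in c124, c129 and c130, and 127, 117 and 142 CPM in fl125, fl126 and fl128. Again every cD2KO mouse exceeded every WT mouse. The mean rose from 75.6 ± 5.60 to 128.9 ± 12.6 CPM, a log2 fold change of 0.77 ± 0.19 (SE; edgeR, unadjusted p = 0.00123, adjusted p = 0.113). Tgfb2 shares exon sequence with the antisense gene Gm29491, which had 0 counts in all 6 mice.

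Tgfb1 (ENSMUSG00000002603, chr7:25687002-25705077, plus strand), the isoform abundant in immune cells and platelets, had few reads, 58 to 70 counts per WT mouse and 16 to 50 per cD2KO mouse. Its level was 17.9, 25.1 and 20.1 CPM in c124, c129 and c130, and 7.25, 15.4 and 15.7 CPM in fl125, fl126 and fl128. The genotypes did not overlap, and fl125 was the lowest mouse. The log2 fold change was -0.70 ± 0.36 (SE; edgeR, unadjusted p = 0.0742, adjusted p = 0.481), with a 95% confidence interval from -1.47 to 0.08. Without fl125 it was -0.39 (edgeR, unadjusted p = 0.271, adjusted p = 0.643).

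Because the ligands are read in the same library, the split of their counts does not depend on the scaling between mice. The 3 ligand genes together had 556 to 884 counts per WT mouse and 773 to 1468 per cD2KO mouse. Tgfb1 took 7.92%, 12.2% and 8.63% of them in c124, c129 and c130, and 2.07%, 4.01% and 3.41% in fl125, fl126 and fl128. The mean share of Tgfb1 was 9.59% ± 2.31 in WT and 3.16% ± 0.992 in cD2KO mice (SD, n = 3), a difference of -6.43 percentage points, and the genotypes were separate (two-sided exact permutation test over mice, p = 0.1, the smallest possible, adjusted p = 0.15 over the 3 shares). The share of Tgfb3 was 58.0%, 54.0% and 56.8% in the WT mice and 61.6%, 65.4% and 65.7% in the cD2KO mice. Its mean was higher by 7.98 points, from 56.3% ± 2.10 to 64.3% ± 2.32, also without overlap (exact permutation test, p = 0.1, adjusted p = 0.15). The share of Tgfb2 overlapped between the genotypes, at 34.1% ± 0.362 and 32.6% ± 3.27 (exact permutation test, p = 0.4, adjusted p = 0.4). Every cD2KO mouse thus had a smaller part from Tgfb1 and a larger part from Tgfb3 than any WT mouse. The design's test could not pass 0.05. The 3 shares are parts of the same total, so more counts of Tgfb2 and Tgfb3 alone lower the share of Tgfb1. They are not separate evidence on the level of Tgfb1, which was not called.

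**Figure D3:**
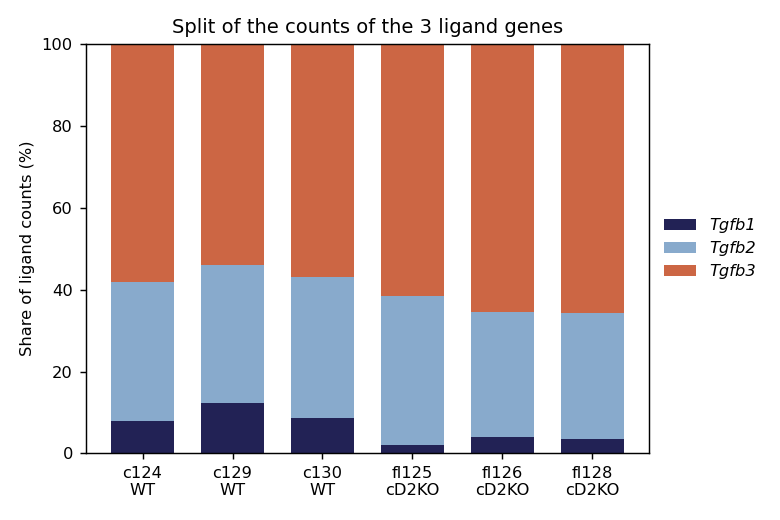
Share of the counts of Tgfb1, Tgfb2 and Tgfb3 (y axis, percent of the summed counts of the 3 genes) in each of the 6 mice (x axis). The share of Tgfb1 was 7.92% to 12.2% in WT mice and 2.07% to 4.01% in cD2KO mice.

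Of the latency proteins, Ltbp1 (ENSMUSG00000001870, chr17:75005568-75392512, plus strand), which tethers latent TGF-β to the matrix, varied little. Its level was 111, 110.4 and 117 CPM in c124, c129 and c130, and 128.6, 127.6 and 125.9 CPM in fl125, fl126 and fl128. Every cD2KO mouse was above every WT mouse, but by a small step, and the log2 fold change of 0.17 ± 0.18 (SE; edgeR, unadjusted p = 0.356, adjusted p = 0.769) did not pass the test. Ltbp4 (ENSMUSG00000040488, chr7:27305136-27337692, minus strand), a binding protein of latent TGF-β1 and a known modifier of muscular dystrophy in mice, was 238, 199 and 289 CPM in the WT mice and 281, 324 and 246 CPM in the cD2KO mice. The genotypes overlapped, with a log2 fold change of 0.23 ± 0.21 (SE; edgeR, unadjusted p = 0.292, adjusted p = 0.731). The 95% confidence intervals, -0.21 to 0.56 for Ltbp1 and -0.22 to 0.67 for Ltbp4, bound the changes these data allow on the log2 scale.

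Among the receptors, the type II receptor gene Tgfbr2 (ENSMUSG00000032440, chr9:116084293-116175360, minus strand), which encodes the subunit that binds the ligand first, was the one that fell. Its level was 62.0, 85.3 and 46.4 CPM in c124, c129 and c130, and 29.0, 46.2 and 33.0 CPM in fl125, fl126 and fl128. The genotypes were separate by a narrow margin, between c130 and fl126. The mean went from 64.5 ± 19.6 to 36.0 ± 8.995 CPM (SD, n = 3), a log2 fold change of -0.83 ± 0.27 (SE; edgeR, unadjusted p = 0.00858, adjusted p = 0.212). The call rested on c129, the WT mouse with the highest level: without it the log2 fold change was -0.56 (edgeR, unadjusted p = 0.0728, adjusted p = 0.678). Without fl125 it was -0.67 (edgeR, unadjusted p = 0.0294, adjusted p = 0.247).

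The remaining receptors were not called. Tgfbr1 (ENSMUSG00000007613, chr4:47353222-47414931, plus strand), the type I receptor kinase that phosphorylates Smad2 and Smad3, was 22.8, 40.6 and 25.6 CPM in the WT mice and 19.5, 18.1 and 30.5 CPM in the cD2KO mice. The genotypes overlapped, and c129 was the highest mouse, as it was for Tgfbr2 and Acvr2b. The log2 fold change of Tgfbr1 was -0.37, with a 95% confidence interval from -1.07 to 0.32 (edgeR, unadjusted p = 0.266, adjusted p = 0.718), and it was -0.06 without c129 and -0.65 without fl128. Tgfbr3 (ENSMUSG00000029287, chr5:107106570-107289629, minus strand), or betaglycan, a co-receptor that presents TGF-β2 in particular, was 134, 103 and 110.1 CPM in the WT mice and 106, 120 and 85.1 CPM in the cD2KO mice. Its log2 fold change was -0.16, with an interval from -0.60 to 0.28 (edgeR, unadjusted p = 0.454, adjusted p = 0.836). Acvr2b (ENSMUSG00000061393, chr9:119402118-119434995, plus strand), the activin type IIB receptor, which binds myostatin, was 40.5, 65.3 and 32.9 CPM in the WT mice and 30.8, 43.1 and 35.8 CPM in the cD2KO mice. Its log2 fold change was -0.33, with an interval from -0.94 to 0.28 (edgeR, unadjusted p = 0.264, adjusted p = 0.717). Myostatin itself (Mstn) lay below the minimum, with 0 or 1 count in each mouse.

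Levels were compared between genes per kilobase of annotated exon. In WT mice the order of mean CPM per kilobase was Ltbp4 (37.5 ± 6.96), Tgfb3 (36.9 ± 3.59), Tgfbr3 (17.7 ± 2.52), Tgfb2 (13.1 ± 0.967), Acvr2b (11.8 ± 4.32), Ltbp1 (10.6 ± 0.352), Tgfbr2 (7.88 ± 2.39), Tgfbr1 (4.54 ± 1.47) and Tgfb1 (4.17 ± 0.731). Neighbours in that order overlapped between mice except Tgfb3 and Tgfbr3, and Tgfbr3 and Tgfb2. In cD2KO mice Tgfb3 came first at 75.9 ± 13.0 CPM per kilobase, above Ltbp4 at 43.8 ± 6.02 in each of the 3 mice. Tgfb2 followed at 22.3 ± 2.17, then Tgfbr3 (15.9 ± 2.67), Ltbp1 (11.9 ± 0.126), Acvr2b (9.31 ± 1.57), Tgfbr2 (4.40 ± 1.10), Tgfbr1 (3.47 ± 1.04) and Tgfb1 (2.53 ± 0.951), and Tgfbr2, Tgfbr1 and Tgfb1 alone overlapped with a neighbour. The mean of Tgfb1 was the lowest of the 9 per kilobase in both genotypes, but its mice overlapped those of Tgfbr1 in both. Reads may not cover transcripts evenly in this service's libraries, for which coverage is not given in the sources used here.

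Promoter sequence was read for the 7 of the 9 genes with an entry in the RefSeq promoter table of GRCm38.p6; Tgfb3 and Tgfbr3 had none. Windows of 250 bases before the annotated start are shown for Tgfb2, which rose, for Tgfbr2, which fell, and for Tgfb1, the ligand that was lower in every cD2KO mouse. They are printed on the strand of the gene, and capitals mark CAGAC, the Smad-binding element, which was searched on both strands. The windows are chr1:186705990-186706239 (minus strand) for Tgfb2, chr9:116175364-116175613 (minus strand) for Tgfbr2 and chr7:25686752-25687001 (plus strand) for Tgfb1.
Tgfb2: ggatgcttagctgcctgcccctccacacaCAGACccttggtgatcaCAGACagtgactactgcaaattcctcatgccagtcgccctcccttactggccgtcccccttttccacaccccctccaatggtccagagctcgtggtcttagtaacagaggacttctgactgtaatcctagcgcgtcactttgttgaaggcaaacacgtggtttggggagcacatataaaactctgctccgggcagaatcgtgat
Tgfbr2: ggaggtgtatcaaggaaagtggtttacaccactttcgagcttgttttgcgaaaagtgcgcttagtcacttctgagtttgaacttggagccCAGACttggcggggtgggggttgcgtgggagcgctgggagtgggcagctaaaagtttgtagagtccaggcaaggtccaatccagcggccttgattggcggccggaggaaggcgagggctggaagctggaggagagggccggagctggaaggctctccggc
Tgfb1: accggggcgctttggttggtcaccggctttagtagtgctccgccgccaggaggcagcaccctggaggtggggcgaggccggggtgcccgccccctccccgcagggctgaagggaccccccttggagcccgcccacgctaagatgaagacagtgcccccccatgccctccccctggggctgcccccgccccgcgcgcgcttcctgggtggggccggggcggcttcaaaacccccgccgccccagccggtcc
The Tgfb2 window held CAGAC at 221 to 217 and at 204 to 200 bases before the start, the Tgfbr2 window held it at 160 to 156 bases, and the Tgfb1 window did not hold it on either strand. Windows of Tgfbr1, Acvr2b and Ltbp1, none of which was called, also held CAGAC on a strand. In the 32817 promoter windows of that length in the table, 42.2% held CAGAC on a strand. None of the windows of the 7 genes held AGGTCA, the half-site of thyroid hormone receptors, which 14.0% of all windows held. Ltbp1 had TGACGTCA, the cyclic AMP response element, at 73 to 66 bases before the start of one of its windows, where 1.55% of all windows held it. The CArG box, found in 1.47% of all windows, was in none of the windows of the 7 genes. The Tgfb2 window overlaps Gm29491 on the opposite strand, and no annotated gene overlaps the windows of Tgfbr2 and Tgfb1.

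The other genes of the pathway were read in the same fit. Of 97 genes in 6 role lists, 79 were tested and 18 lay below the minimum. In cD2KO mice 9 of the 79 rose (11.4%), 7 fell (8.86%) and 63 were not called, with a median log2 fold change of -0.02, the same as for all tested genes to that precision. Over all tested genes 5.34% rose and 6.62% fell, and these shares apply to the role lists below as well. In edgeR, only Tagln and Lrrc32 of the 79 had an adjusted p under 0.1, and none was under 0.05. With the Wald test of DESeq2, 4 rose (Tagln, Acta2, Lrrc32 and Tgm2) and 2 fell (Nrros and Tgfbi) at an adjusted p under 0.05, and with limma voom 0 did either.

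**Figure D4:**
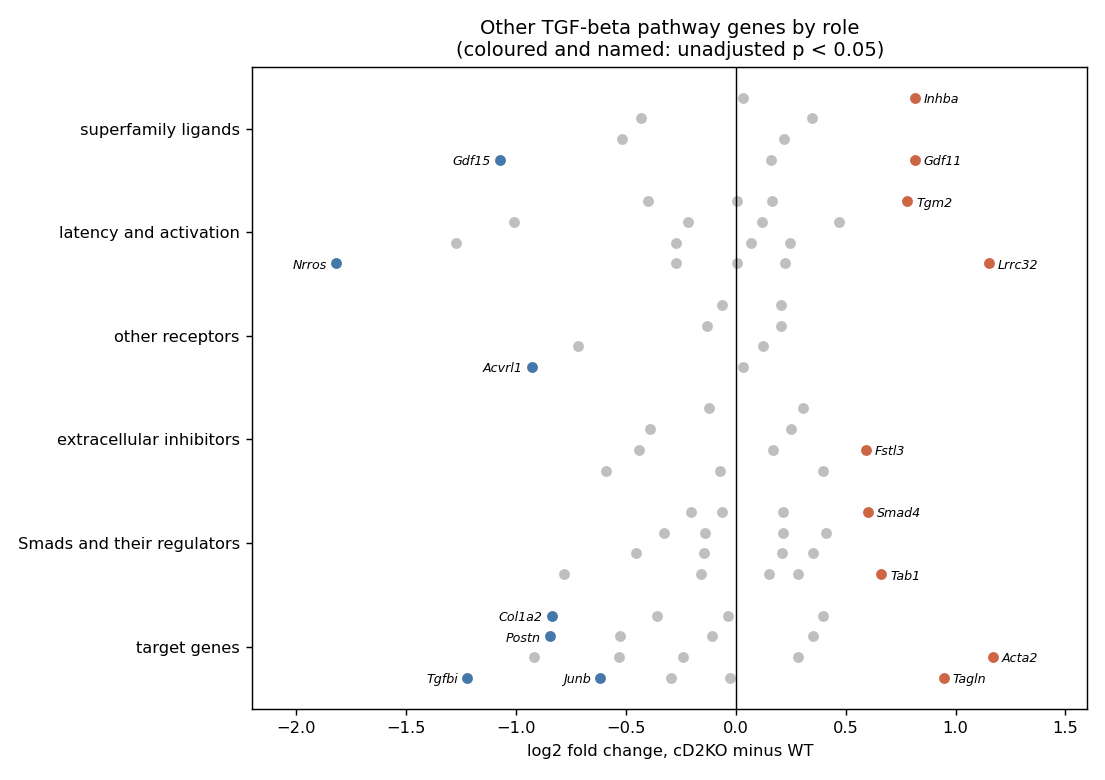
Log2 fold change, cD2KO minus WT (x axis), of the 79 tested pathway genes other than the 9, in rows by role, each point a gene; vertical offsets within a row are for legibility. Orange and blue mark the 9 genes that rose and the 7 that fell, which are named.

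Among 17 tested genes of latency and activation, Lrrc32 and Tgm2 rose and Nrros fell. Lrrc32 encodes GARP and Nrros encodes a related protein, and both anchor latent TGF-β to cell surfaces, GARP on regulatory T cells, platelets and endothelium and NRROS on macrophages and microglia. Lrrc32 was 50.2, 35.4 and 39.1 CPM in c124, c129 and c130, and 79.7, 74.6 and 123 CPM in fl125, fl126 and fl128, a log2 fold change of 1.15 ± 0.25 (SE; edgeR, adjusted p = 0.0906). Nrros was 50.2, 46.1 and 76.8 CPM in the WT mice and 2.72, 24.3 and 20.7 CPM in the cD2KO mice, a log2 fold change of -1.82 ± 0.58 (SE; edgeR, adjusted p = 0.271). Mice of the genotypes did not overlap for either anchor, and the anchors moved in opposite directions. Nrros was lowest in fl125, the mouse with the lowest immune markers, and without that mouse its log2 fold change was -1.32 (edgeR, adjusted p = 0.0305). The summed immune markers were low in the other cD2KO mice too, at log2 values of -1.29 in fl126 and -1.05 in fl128 relative to the WT mean. Leaving out fl125 therefore does not separate Nrros from the immune markers, and their part in its result was not tested. Tgm2, a transglutaminase that crosslinks latent complexes into the matrix, had a log2 fold change of 0.78 (edgeR, adjusted p = 0.174). The integrin genes Itgav and Itgb8, whose products can activate latent TGF-β, had log2 fold changes of 0.07 and -0.27 and were not called.

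Of 9 tested ligands of the wider superfamily, Gdf11 and Inhba rose and Gdf15 fell. Gdf11, a close relative of myostatin, was 34.1, 41.3 and 43.6 CPM in the WT mice and 68.4, 62.9 and 77.6 CPM in the cD2KO mice, which did not overlap (log2 fold change 0.81 ± 0.22, SE; edgeR, adjusted p = 0.132). Inhba, the activin A subunit, had a log2 fold change of 0.81 (edgeR, adjusted p = 0.281), and its call was lost without c124 or without fl128. Gdf15, a stress-induced cytokine, had a log2 fold change of -1.07 (edgeR, adjusted p = 0.252), and its call was lost without c129 or without fl128. Its log2 fold change ran from -1.34 to -0.55 over the fits that left out a mouse.

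Of 8 other receptors tested, Acvrl1 alone was called, and it fell. ACVRL1, or ALK1, is a type I receptor known chiefly from endothelium. Its log2 fold change was -0.93 (edgeR, adjusted p = 0.259), and the call was lost without c129 or without c130. The sum of the endothelial markers was lower in each cD2KO mouse than in each WT mouse. Of the 10 tested, 6 fell, against 6.62% of all tested genes, and 4 were not called. Esam, one of those 4, was higher in each cD2KO mouse, at 144 to 147 CPM against 76.4 to 143 CPM in WT mice. Tek, Vwf and Emcn had log2 fold changes of 0.04, -0.11 and -0.81. The part of the endothelial markers in the result for Acvrl1 was not tested.

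Of 10 extracellular inhibitors tested, Fstl3, a secreted binder of activin and myostatin, rose, with a log2 fold change of 0.59 (edgeR, adjusted p = 0.285) that kept its call in 3 of the 6 fits that left out a mouse. Among 17 Smads and regulators, Smad4, the Smad shared by the TGF-β and BMP branches, had a log2 fold change of 0.60 (edgeR, adjusted p = 0.377), and Tab1, an activator of the kinase TAK1, had 0.66 (edgeR, adjusted p = 0.3999). Both were called, and kept the call in 2 and 1 of those 6 fits, with log2 fold changes from 0.31 (without fl128) to 0.87 (without fl125) for Smad4 and from 0.42 (without c124) to 0.88 (without c129) for Tab1. Smad2 and Smad3, which the TGF-β receptors phosphorylate, had log2 fold changes of -0.45 and 0.35, and Smad7, the inhibitory Smad, -0.21. None of these 3 was called.

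Of 18 tested target genes of TGF-β, 2 rose (11.1%) and 4 fell (22.2%), against 5.34% and 6.62% of all tested genes. Tagln and Acta2, genes of the smooth muscle contractile apparatus, rose, while Tgfbi, Postn and Col1a2, which encode matrix proteins, fell, as did Junb, a transcription factor gene chosen for mention after its value was seen. Tagln was 107, 117 and 119.8 CPM in c124, c129 and c130, and 245, 186 and 231 CPM in fl125, fl126 and fl128, a log2 fold change of 0.95 ± 0.19 (SE; edgeR, adjusted p = 0.0885). Acta2, which is also on the list of mural markers, had a log2 fold change of 1.17 (edgeR, adjusted p = 0.159). Tagln shares 108 exon bases with Pcsk7, which had 7 to 55 counts per mouse and was not called. It shares 1241 with the antisense gene Gm48529, which had 0 to 11 counts per mouse and was not tested. Tgfbi was 261, 396 and 389.7 CPM in the WT mice and 70.2, 184 and 192 CPM in the cD2KO mice, a log2 fold change of -1.22 ± 0.34 (SE; edgeR, adjusted p = 0.174). The log2 fold change was -0.85 for Postn (edgeR, adjusted p = 0.126), -0.84 for Col1a2 (edgeR, adjusted p = 0.214) and -0.62 for Junb (edgeR, adjusted p = 0.396). Col1a2 lost its call without c130, and Junb in 4 of the 6 fits that left out a mouse, with a log2 fold change of -0.37 without c129. Tgfbi, Postn and Col1a2 were lowest in fl125, as were the summed immune and fibroadipogenic markers. Without fl125 their log2 fold changes were -0.85, -0.76 and -0.63. The fibroadipogenic list shares collagen genes with the list of target genes, so the 2 lists are not independent. Of 9 tested fibroadipogenic markers, 1 rose, 1 fell and 7 were not called. The part of these markers in the results for Tgfbi, Postn and Col1a2 was not tested. Ccn2, a target often used as a readout of TGF-β signaling, had a log2 fold change of 0.28 and was not called.

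Markers of other cell types moved along with several of these genes. Relative to the WT mean, the summed mural markers were at log2 values of 0.61, 0.72 and 1.17 in fl125, fl126 and fl128. Tgfb3 was at 0.79, 1.01 and 1.28 in the same mice, and Tgfb2 at 0.75, 0.63 and 0.91. In c124, c129 and c130 the mural markers were at 0.38, -0.40 and -0.08, and Tgfb3 at 0.07, -0.17 and 0.08. In fl125, fl126 and fl128 the muscle fiber markers were at 0.11, 0.41 and 1.09 and the fibroadipogenic markers at -1.14, -0.32 and 0.08. Schwann markers were at 0.32, 0.28 and 0.13 in these mice, and muscle stem cell markers at 0.56, 0.35 and 0.13. Tgfb3 and the mural, muscle fiber and fibroadipogenic markers were lowest in fl125 and highest in fl128 among the cD2KO mice. The Schwann and muscle stem cell markers had the reverse order, and Tgfb2 was lowest in fl126. Of the 10 mural markers, the smooth muscle genes Myh11, Acta2 and Cnn1 rose together with Mcam, and the other 6, Rgs5, Pdgfrb, Kcnj8, Abcc9, Cspg4 and Higd1b, were not called, with log2 fold changes between -0.36 for Kcnj8 and 0.34 for Higd1b. Acta2 and Myh11 made up most of the mural sum. Their means were 2658 and 2179 CPM in WT mice and 5973 and 4347 CPM in cD2KO mice. Rgs5, the next highest, had means of 1456 and 1459.7 CPM. The rise of the mural sum was thus mainly that of smooth muscle genes. The immune markers were at -4.75, -1.29 and -1.05 relative to the WT mean in fl125, fl126 and fl128. Tgfb1 was at -1.54, -0.45 and -0.42 in these mice, and Tgfbr2 at -1.16, -0.48 and -0.97. Of the 13 immune markers 4 fell, 9 were not called, and 12 were lower in each cD2KO mouse than in each WT mouse. Of the 10 muscle stem cell markers, Myf5, Itga7 and Cdh15 rose and 7 were not called. Over all tested genes, 5.34% rose, 6.62% fell and the genotypes did not overlap in 18.1%. The part of any of these markers in the results for the 9 genes was not tested.

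**Figure D5:**
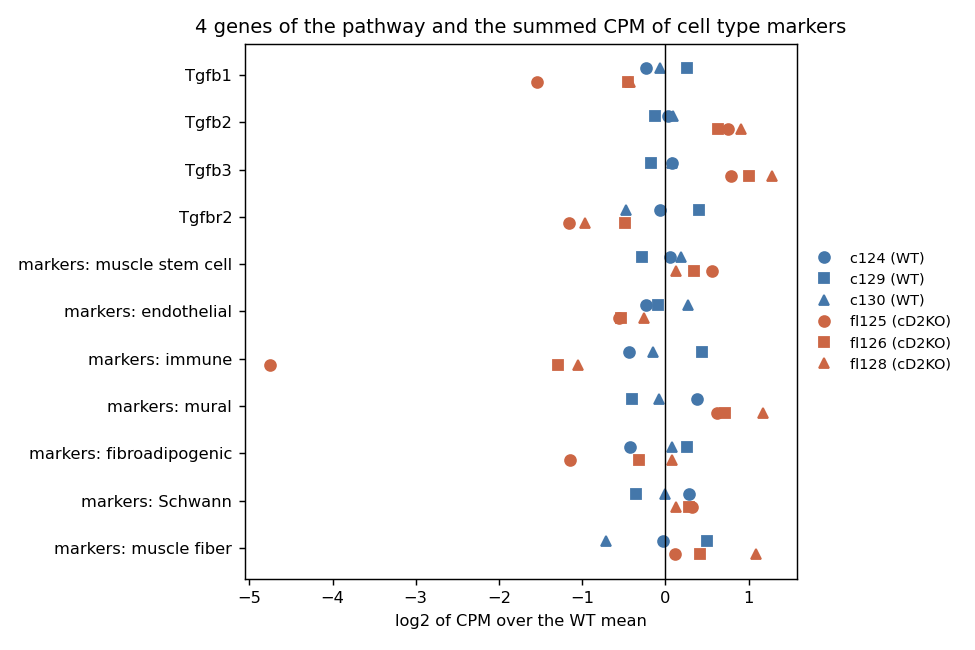
Levels of Tgfb1, Tgfb2, Tgfb3 and Tgfbr2 and the summed CPM of marker lists for 7 cell types, as log2 of CPM over the WT mean (x axis), each point a mouse, WT in blue and cD2KO in orange. Immune markers were at -4.75 in fl125, and mural markers were between 0.61 and 1.17 in the 3 cD2KO mice. Most of the mural sum came from Acta2 and Myh11.

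The genes most like Tgfb3 and Tgfbr2 across the 6 mice were also listed, as a description of 6 points that share libraries and genotypes. For Tgfb3 they were Prkar1a, a regulatory subunit of protein kinase A (Pearson's r = 0.995 on log2 CPM), Mcee, a mitochondrial epimerase (0.994), and Cavin1, a caveola coat protein (0.9904). For Tgfbr2 they were Evi2a (0.995), Ogfrl1 (0.992) and the kinase gene Pim1 (0.987). Among 9151 genes compared, 90 reached r above 0.95 with Tgfb3 and 33 with Tgfbr2.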

How the data were processed

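Each of the 6 libraries (3 WT, 3 cD2KO) held RNA of sorted muscle stem cells from 1 mouse. According to the labels and Methods, RNA was prepared with the RNeasy Mini Kit and sequenced by a commercial digital RNA-seq service. The authors deposited unnormalized whole-number counts per gene. The submitters' processing notes name bcl2fastq, STAR 2.6.0a, HTSeq 0.9.1 and mm10. Coordinates are those of mm10, although the Methods also print a human assembly name beside it. The annotation, the use of strand, the handling of PCR duplicates and the coverage along transcripts are not given in the sources used here, so reads of overlapping genes may not be separable. Symbols, positions and exon lengths came from GENCODE M21, which held 30934 of the 31053 gene identifiers.

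A gene was tested where the mean of its counts, divided by DESeq2 size factors, exceeded 10, the minimum the study used. The robust quasi-likelihood test of edgeR 4.0.16 (R 4.3.3) was fitted to the counts of all 6 mice with TMM factors and no covariates. Benjamini-Hochberg adjustment covered every gene tested, and the line was an unadjusted p under 0.05. CPM used TMM-scaled library sizes, and log2 CPM a prior count of 2. Intervals are 95% confidence intervals, SD is between mice, and floors cover counting error only. No pair of libraries agreed within sampling noise (chi-square per degree of freedom of at least 8.24 over 15 pairs). The procedure was tested on simulated data.

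The 9 genes and the gene lists were chosen with earlier results of these data known. Named were the 9 genes, Dio2, at most 3 called genes per direction in a role list, taken by smallest p, the 3 tested genes most correlated with the member of smallest p in either direction (mean of at least 10 CPM), and markers that moved with a member. Genes named beyond that rule were chosen after their values were seen. Among the markers they were Pax7, Tie1, Cldn5, Esam, Tek, Vwf, Emcn, Rgs5, Pdgfrb, Kcnj8, Abcc9, Cspg4 and Higd1b. The others were Mstn, Itgav, Itgb8, Smad2, Smad3, Smad7, Ccn2, Junb, Ttll5, Pcsk7, Gm48529 and Gm29491. Gm37804 and Gm48008, which had no counts here, were named for their overlap with Tgfb3. A further gene of the target list is included in the counts, and its own result is not reported here.

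As alternatives, DESeq2 1.42.0 (Wald test) and voom of limma 3.58.1 were run, with 3 other scalings, 3 other filters, non-robust estimation, adjusted p under 0.1 or 0.05, each mouse left out and, for the ligand shares, counts pooled over mice. Counts thinned to the smallest library were added after seeing the data.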

Additional observations from a re-analysis of the deposited data

How the results depend on the processing

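Of 143 refits of the 9 log2 fold changes, 141 kept direction and side of the threshold. Acvr2b reversed to 0.018 without c129 (range -0.49 to 0.018 over the mice left out), and Tgfbr2 lost its call without c129, at -0.56; the cause was not tested. Tgfb3 and Tgfb2 were called in 16 of 16 refits each, between 0.90 and 1.19 and between 0.69 and 0.84, with adjusted p from 0.000339 to 0.382 and from 0.0223 to 0.462. Tgfb1 was called in 0 of 15. With an adjusted p under 0.05, genes higher and lower numbered 1 and 0, with 0 and 0 of the 9 and 0 and 0 of the pathway lists (1391 genes, 3 of the 9 and 16 of the lists at an unadjusted p under 0.05; with DESeq2, adjusted, 103 and 142, 2 and 0, and 4 and 2, and with voom 0 throughout); under 0.1 they numbered 33 and 57, 1 and 0, and 2 and 0. A minimum mean of 50, which left 7353 genes, gave 505 genes lower, and no minimum, with 18040 genes, gave 939 higher. Scaling to total counts gave 445 genes higher and 945 lower. Leaving out a mouse in turn gave 402 (without fl128) to 933 (without fl125) genes higher and 399 (without c129) to 874 lower, 2 to 2 of the 9 higher and 0 (without c129) to 1 lower, and 5 (without c124) to 12 pathway genes higher and 4 (without c129 or c130) to 7 lower. The share differences ran from -7.27 to -5.11 points for Tgfb1, -3.43 to -0.524 for Tgfb2 and 6.82 to 9.31 for Tgfb3, and pooling counts left each within its spread. Depth limits Tgfb1, with 16 counts in fl125. No paired analysis was possible because the mouse numbers name single animals and are not shared between the genotypes.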
